A study of Mus musculus with 8 samples.

Results

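The enzymes of glycolysis and of the citric acid cycle, with those that join the pathways, were followed as a list of 40 genes in mouse hippocampus. A gene was taken as measured when the platform annotation gave it a probe set of its own, and it was represented by the probe set with the highest mean value. By this rule 38 of the 40 were measured, out of 12394 genes in all. Gpi1 and Eno1 are not analysed here. The mice were male SCID mice, 12 weeks old, a strain that carries a mutation which leaves it without mature B and T lymphocytes while myeloid cells and microglia are retained. In the treated group 4 mice were given FTY720 (fingolimod, a sphingosine analogue that acts on sphingosine-1-phosphate receptors once phosphorylated) by mouth at 1 mg/kg in saline on 3 days, and in the vehicle group 4 mice were given saline by mouth on 3 days. Mice of both groups went through contextual fear conditioning, in which a chamber is paired with a shock, and the hippocampus was dissected 17 hours after the last dose, which was 1 hour after memory had been tested in the consolidation test. Each array is labelled as a biological replicate, read here as a single mouse. The mice are numbered as in the labels (FTY720 mice 1, 4, 5 and 6, vehicle mice 13, 14, 15 and 16). On that reading the p-values measure the spread between animals.

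Glycolysis splits glucose into pyruvate in the cytosol and yields ATP and NADH. Pyruvate is then either reduced to lactate by lactate dehydrogenase or carried into mitochondria, where the pyruvate dehydrogenase complex turns it into acetyl-CoA for the citric acid cycle. Neurons draw most of their ATP from mitochondrial oxidation, whereas astrocytes are known for strong glycolysis and for the release of lactate.

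Values are log2 signals of probe sets, so a difference of 1 is a doubling, and all differences are FTY720 minus vehicle. A level depends on the probes as well as on the RNA. Where levels are set against those of other genes, they describe the brightness of a probe set and not the amount of RNA. Array medians were between 6.68 and 6.72, and the median correlation of an array with the others was 0.994 for vehicle 15, 0.996 for vehicle 16 and 0.997 to 0.998 for the other arrays. Of the hippocampal markers 6 of 10 were measured. Neurod6 (mean level 10.49), Zbtb20 (9.90), Wfs1 (9.87) and Dsp (9.11) were above the median of all genes, 7.17, while Tdo2 (5.57) and Prox1, a granule cell factor (3.29), were below it. The mean deviation of these 6 markers from their mean over 8 mice was -0.36 in vehicle 16, -0.20 in vehicle 15, 0.34 and 0.16 in vehicle 13 and 14, and -0.16 to 0.24 in the FTY720 mice. Markers of neighbouring tissue differed between mice as well. Choroid plexus markers (5 of 8 measured) had the mean deviations -1.19 to 0.81 under FTY720 and -0.83 to 1.33 under vehicle, with sums of linear signal of 3865 to 21300 and 7928 to 23321. The mean deviation of the striatal markers (7 of 10 measured) was 1.34 in vehicle 15, 0.32 in vehicle 16 and -0.33 to -0.18 in the FTY720 mice, and their summed linear signal was 1783 to 2108 under FTY720 and 1818 to 10235 under vehicle. For thalamic markers (9 of 9 measured) the mean deviation was 1.15 in vehicle 15 and -0.38 to -0.18 in the FTY720 mice, with sums of 1162 to 1377 and 1164 to 4120. Oligodendrocyte markers (8 of 10 measured) summed to 19818 to 21744 under FTY720 and 21916 to 27407 under vehicle, without overlap, and the neuron markers (9 of 10 measured) to 21327 to 22961 and 21537 to 23354. In the following, the part of these tissue differences in the results on the metabolic genes was not tested. Some values are given with the mean of the oligodendrocyte markers as a covariate. That mean did not overlap between the groups (deviations of -0.35 to -0.068 under FTY720 and -0.053 to 0.40 under vehicle). With this covariate, tissue and treatment therefore cannot be told apart.

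No gene of the list passed an adjusted p of 0.05 with limma and Benjamini-Hochberg adjustment over all 12394 genes, where 0 genes passed (0%). The adjusted p of the members ran from 0.634 to 0.998. At an unadjusted limma p under 0.05, 5 of the 38 members were found, against 823 of all genes (6.64%). Pfkl, Pdk3, Pdha1 and Tpi1 had the higher mean under FTY720 (3.86% of all genes) and Suclg2 the lower (2.78%). Groups that did not overlap, each FTY720 mouse on 1 side of each vehicle mouse, were seen for 5 members, against 4.49% of all genes. They were Pfkl, Ldha, Pdha1 and Idh3b on the higher side (2.72%) and Suclg2 on the lower (1.78%). The difference was above 0 for 26 members and below 0 for 12, with 53.5% of all genes above 0. Its median was 0.037 over the members and 0.0072 over all genes, while the median size regardless of sign was 0.057 and 0.054. As the samples are whole tissue, a change in the number of cells of a type and a change in RNA per cell cannot be told apart.

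The 95% interval of the difference lay within a 1.25-fold change (0.32 on the log2 scale) in both directions for 35 of the 38 members, for 10326 of the 12394 genes and for 5388 of the 6197 genes above the median level, where 34 of the members lie. Pfkl, Ldhb and Suclg2 were the exceptions. The differences were under 0.1 in size for 28 members and at 0.1 or more for 10. The spread between mice of 1 group had a median SD of 0.066 over the members and 0.099 over all genes, and 31 members lay under that median of all genes. Among genes above the median level the median SD was 0.082, with 27 members under it. With 4 arrays a group, the number of arrays limits the precision.

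**Figure D1:**
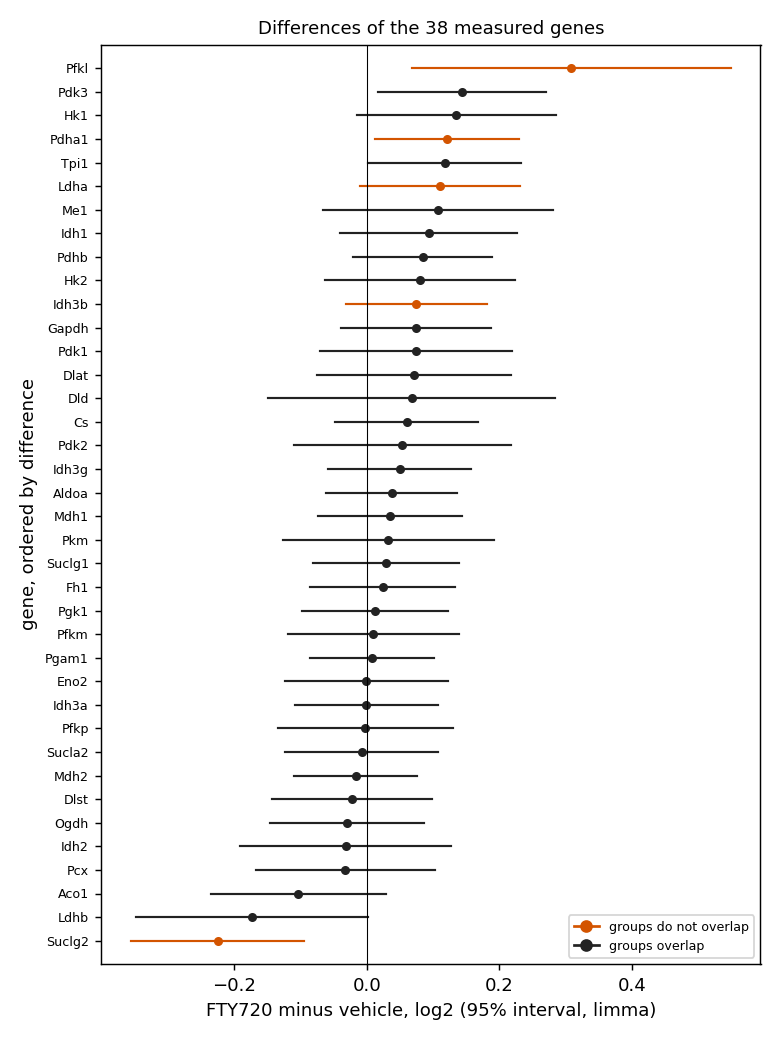
Difference between FTY720 and vehicle (log2, horizontal axis) for the 38 measured genes, ordered by difference, with points for the fitted difference and lines for the 95% interval. Most intervals cross 0, and the whole range of the differences is -0.22 (Suclg2) to 0.31 (Pfkl).

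Vehicle 15 and 16 stood apart within the list too. After subtraction of each gene's mean over 8 mice, the median deviation of the 38 genes was 0.014, 0.031, 0.039 and 0.019 in FTY720 mice 1, 4, 5 and 6. It was 0.011 and 0.0019 in vehicle 13 and 14, and -0.028 and -0.040 in vehicle 15 and 16. Vehicle 15 or 16 was the lowest of the 8 mice for 22 members, 57.9% of them, and for 40.5% of all genes. Without both mice the median difference of the members was 0.014, and 1 member, Suclg2, had an unadjusted limma p under 0.05. The share of all genes at that setting is not given here.

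At the entry of glycolysis, Pfkl, the liver-type subunit of phosphofructokinase, which commits the sugar to glycolysis, had the largest difference of the list. Its values were 7.53, 7.61, 7.60 and 7.67 in FTY720 mice 1, 4, 5 and 6, and 7.45, 7.53, 6.99 and 7.20 in vehicle 13, 14, 15 and 16. The groups did not overlap, but FTY720 mouse 1 lay level with vehicle 14 to 2 decimals, and vehicle 15 and 16 were the low mice. The means were 7.60 ± 0.06 and 7.29 ± 0.24 (SD, n = 4 each). The difference was 0.31 (SE 0.11; limma adjusted p = 0.719), and 0.11 without vehicle 15 and 16. The dimmer of its probe sets, at a mean of 7.15, differed by 0.07 with overlap of the groups, and by -0.0092 without vehicle 15 and 16.

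Hexokinase 1 (Hk1), the main hexokinase of brain, which traps glucose by phosphorylation, had values of 10.53, 10.51, 10.58 and 10.60 under FTY720 and 10.53, 10.48, 10.24 and 10.44 under vehicle. The groups overlapped through vehicle 13, which lay above FTY720 mouse 4, and vehicle 15 was the low mouse. The difference was 0.14 (SE 0.07; limma adjusted p = 0.766), or 0.053 without vehicle 15 and 16. The other genes of these steps were Hk2, an inducible hexokinase, at 0.08, and the muscle-type and platelet-type phosphofructokinase subunits Pfkm at 0.01 and Pfkp at -0.0022. Over the 5 measured genes of these steps, the mean deviation was 0.034 to 0.070 in the FTY720 mice, 0.027 in vehicle 13, 0.024 in vehicle 14, -0.22 in vehicle 15 and -0.041 in vehicle 16.

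**Figure D2:**
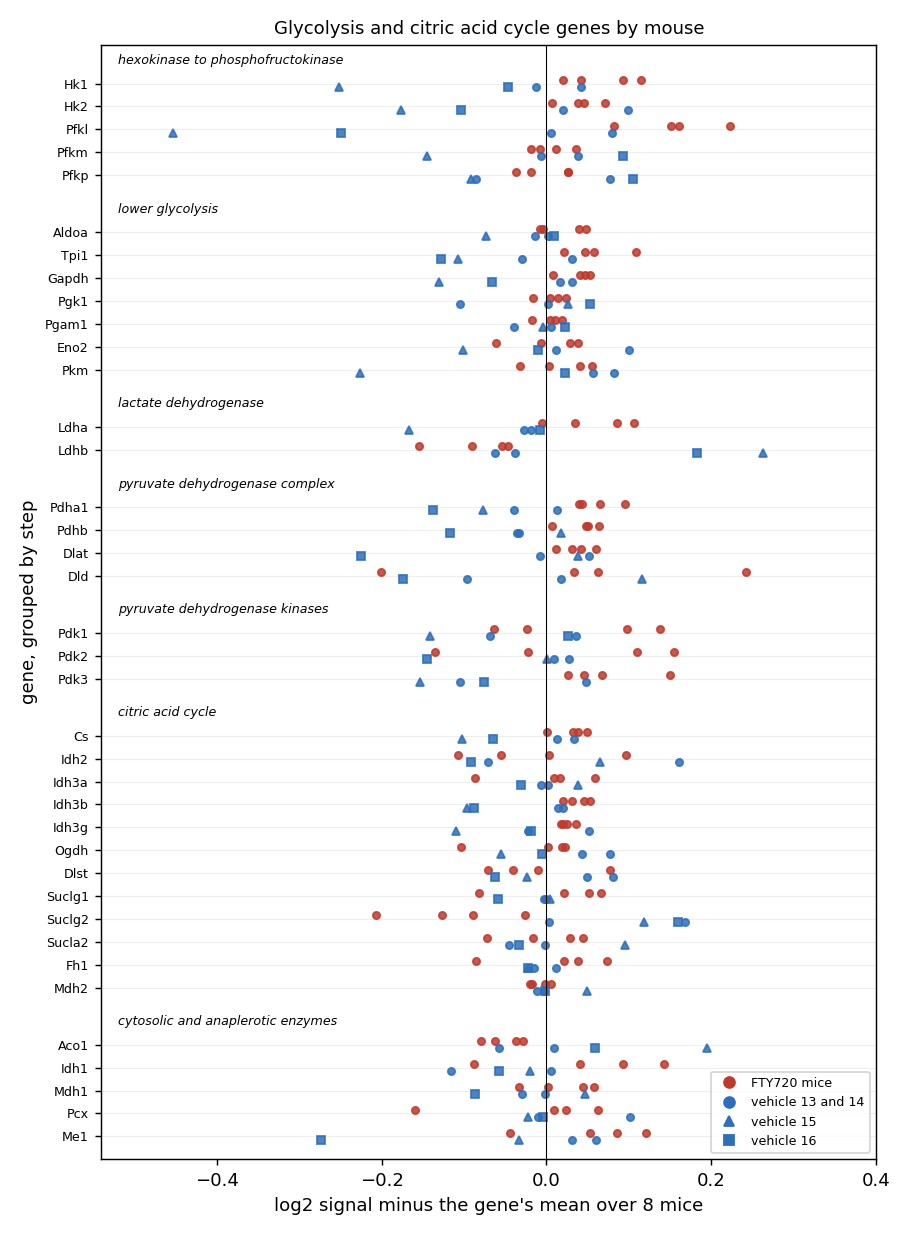
Log2 signal minus the gene's mean over 8 mice (horizontal axis) for the 38 measured genes, grouped by step. Each mouse has a point (FTY720 in red, vehicle in blue, vehicle 15 a triangle and vehicle 16 a square). For Pfkl the triangle and the square lie to the left of the other 6 mice, and for Suclg2 all 4 red points lie to the left of the blue ones.

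Among the 7 measured genes of lower glycolysis, 6 differences were above 0 and 1 was just below, and their range was -0.00046 to 0.12. Triosephosphate isomerase (Tpi1), which interconverts the triose phosphates, had values of 11.93, 11.91, 11.95 and 12.00 under FTY720 and 11.92, 11.86, 11.78 and 11.76 under vehicle. The groups overlapped through vehicle 13. The difference was 0.12 (SE 0.05; limma adjusted p = 0.746), and 0.058 without vehicle 15 and 16. The dimmer probe sets of Tpi1 gave 0.12 and 0.019, both with overlap of the groups. Aldolase A (Aldoa), which splits the hexose, differed by 0.038. Phosphoglycerate kinase 1 (Pgk1), the first ATP-yielding enzyme of the pathway, differed by 0.012, phosphoglycerate mutase 1 (Pgam1) by 0.0080, neuronal enolase (Eno2) by -0.00046 and pyruvate kinase M (Pkm) by 0.033. For each of these 5 genes the SE exceeded the difference.

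Gapdh, the glyceraldehyde phosphate dehydrogenase, was measured by the manufacturer's control probe sets, which lie toward the 3' end, in the middle and toward the 5' end of the transcript. The 3' probe set, the brightest, gave 12.50, 12.46, 12.49 and 12.51 under FTY720 and 12.47, 12.48, 12.32 and 12.39 under vehicle. The treated mice lay close together and vehicle 15 and 16 lay below. The difference was 0.07 (SE 0.05), and 0.013 without those mice. In the middle it was 0.21 (SE 0.08) and at the 5' end 0.33 (SE 0.10), both without overlap of the groups, and without vehicle 15 and 16 these were 0.061 and 0.21. The 5' minus 3' signal was -0.95 ± 0.14 under FTY720 and -1.20 ± 0.18 under vehicle (SD, n = 4 each; two-sided exact permutation p = 0.057, adjusted over 3 genes 0.086). For actin it was -2.34 ± 0.11 and -2.54 ± 0.14 (exact permutation p = 0.057), and for Pcx -2.87 ± 0.16 and -2.91 ± 0.11 (exact permutation p = 0.714). The smallest p that 70 assignments of 4 against 4 allow is 0.029. Vehicle 16 had the lowest value for Gapdh, -1.46, and for actin, -2.74. The Gapdh difference thus varied with the part of the transcript that was read.

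The lactate dehydrogenase genes, whose A subunit prevails where lactate is formed and whose B subunit prevails in neurons and other oxidative cells, had differences of opposite sign. For Ldha the values were 10.60, 10.55, 10.62 and 10.51 under FTY720 and 10.49, 10.48, 10.35 and 10.50 under vehicle. The groups did not overlap, with FTY720 mouse 6 next to vehicle 16. The Ldha difference was 0.11 (SE 0.05; limma adjusted p = 0.765), and 0.079 without vehicle 15 and 16. For Ldhb the values were 11.65, 11.69, 11.59 and 11.70 under FTY720 and 11.68, 11.71, 12.01 and 11.93 under vehicle. Vehicle 15 and 16 were the high mice, and the other 6 lay within 11.59 to 11.71. The Ldhb difference was -0.17 (SE 0.08; limma adjusted p = 0.750), and -0.036 without vehicle 15 and 16. With the mean of the oligodendrocyte markers as a covariate it was -0.13. The 4 probe sets of Ldhb all gave differences below 0, from -0.17 to -0.13.

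The promoters of these genes are shown because the differences of the pair had opposite signs, and those of Pfkl and Suclg2 because they had the largest differences of the list on either side of 0. Each is the 250 bases before the start of transcription, 5' to 3' on the strand of the gene, from RefSeq on GRCm38.p6: Ldha at chr7:46845554-46845803 on the plus strand, Ldhb at chr6:142507958-142508207, Pfkl at chr10:78009808-78010057 and Suclg2 at chr6:95718847-95719096, the last 3 on the minus strand. For Ldha 2 starts are listed, and the more 5' was used. Capitals mark ACGTG or its reverse complement CACGT, a form of the core of the hypoxia response element. Other forms of that core, such as GCGTG, were not searched for.
Ldha: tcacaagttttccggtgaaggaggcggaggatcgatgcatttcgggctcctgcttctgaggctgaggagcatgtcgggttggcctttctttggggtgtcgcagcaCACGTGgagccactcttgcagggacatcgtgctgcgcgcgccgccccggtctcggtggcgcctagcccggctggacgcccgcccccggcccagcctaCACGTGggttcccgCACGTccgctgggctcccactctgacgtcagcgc
Ldhb: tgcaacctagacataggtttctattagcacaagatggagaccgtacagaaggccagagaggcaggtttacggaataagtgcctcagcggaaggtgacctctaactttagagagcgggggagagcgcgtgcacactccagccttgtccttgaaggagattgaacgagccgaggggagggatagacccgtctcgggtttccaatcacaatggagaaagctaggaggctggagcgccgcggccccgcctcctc
Pfkl: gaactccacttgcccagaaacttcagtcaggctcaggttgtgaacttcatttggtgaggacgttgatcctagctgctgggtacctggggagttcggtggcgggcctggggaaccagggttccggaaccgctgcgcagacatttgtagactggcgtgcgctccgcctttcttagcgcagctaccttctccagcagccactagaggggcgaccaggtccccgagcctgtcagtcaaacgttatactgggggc
Suclg2: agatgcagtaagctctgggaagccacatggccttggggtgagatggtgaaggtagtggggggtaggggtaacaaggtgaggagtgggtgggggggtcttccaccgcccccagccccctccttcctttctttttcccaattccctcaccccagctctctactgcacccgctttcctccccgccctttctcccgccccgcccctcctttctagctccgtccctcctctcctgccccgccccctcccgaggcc
The Ldha promoter held the ACGTG form 5 times over both strands, 4 of these as overlapping matches within a pair of CACGTG palindromes. The other 3 promoters held this form 0 times. Over all 32851 RefSeq promoters of this length 16.6% held it, and over the 21263 of coding genes 17.8%. Of the 55 promoters of 37 measured members with an entry, 22 (40.0%, 15 genes) held it. CACGTG, which contains it, was found in 7 (12.7%; 6.02% of all promoters), the Sp1 box GGGCGG in 27 (49.1%; 42.6% of those of coding genes), the TATA box TATAAA in 1, that of Eno2 (1.82%; 12.4% of all), and AAGGTCA, the half-site of ESRRA, in 0 (4.08% of all), each searched on both strands. These matches describe the sequence in the window alone. Genes with the ACGTG form were found among the larger differences (Ldha, Pdk3) and among the smallest (Pgk1, Pgam1).

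All 4 genes of the pyruvate dehydrogenase complex, which turns pyruvate into acetyl-CoA, had differences above 0 in the probe set used. Pdha1, the X-linked catalytic alpha subunit and the target of the inhibitory kinases, had values of 11.41, 11.41, 11.43 and 11.46 under FTY720 and 11.38, 11.33, 11.29 and 11.23 under vehicle. The groups did not overlap, with the smallest gap between FTY720 mouse 1 and vehicle 13. The difference was 0.12 (SE 0.05; limma adjusted p = 0.729), and 0.074 without vehicle 15 and 16. The dimmer probe set of Pdha1 gave 0.058 with overlap of the groups. With the mean of the oligodendrocyte markers as a covariate, the differences of Pdha1 and Tpi1 were 0.033 and 0.023. The beta subunit Pdhb differed by 0.084 and Dlat, the acetyltransferase, by 0.072, or 0.077 and 0.014 without those mice. The dimmer probe sets of Dlat gave -0.025 and -0.050. Dld, the dehydrogenase that this complex shares with the oxoglutarate dehydrogenase complex, was among the most scattered members. Its values were 9.16, 9.60, 9.40 and 9.42 under FTY720 and 9.38, 9.27, 9.48 and 9.19 under vehicle, so the groups overlapped throughout. The Dld difference was 0.07 (SE 0.10).

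The kinases that switch the complex off by phosphorylation had differences of 0.07 (Pdk1), 0.05 (Pdk2) and 0.14 (Pdk3). Pdk3 had values of 7.67, 7.80, 7.71 and 7.69 under FTY720 and 7.54, 7.69, 7.49 and 7.57 under vehicle. Vehicle 14 lay within the treated range and the other 3 vehicle mice below it. The SE of the Pdk3 difference was 0.06 (limma adjusted p = 0.726), and the difference was 0.10 without vehicle 15 and 16. Without those mice Pdk1 was at 0.053 and Pdk2 at 0.0089.

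Within the citric acid cycle 5 of 12 genes were above 0 and 7 below, with a median of -0.0041. Suclg2, the subunit that makes succinyl-CoA ligase GTP-forming, had the smallest unadjusted p of the list. Its values were 6.31, 6.19, 6.38 and 6.28 under FTY720 and 6.57, 6.40, 6.52 and 6.56 under vehicle. All treated mice lay below all vehicle mice, with FTY720 mouse 5 next to vehicle 14. The means were 6.29 ± 0.08 and 6.51 ± 0.08 (SD, n = 4 each). The difference was -0.22 (SE 0.06; limma adjusted p = 0.634), and -0.20 without vehicle 15 and 16, where its unadjusted limma p was still under 0.05. With the actin 5' minus 3' signal described above as a covariate it was -0.16, and its unadjusted p was then above 0.05. Its single probe set had a mean below the median of all genes. The partners of this enzyme did not share the value: Suclg1, the common alpha subunit, differed by 0.029 and Sucla2, the ATP-forming beta subunit, by -0.0075.

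The subunits of the NAD-dependent isocitrate dehydrogenase, a rate-setting enzyme of the cycle, differed by -0.00081 (Idh3a), 0.07 (Idh3b, groups without overlap, SE 0.05, but 0.020 without vehicle 15 and 16) and 0.05 (Idh3g). Citrate synthase (Cs), which starts the cycle, differed by 0.06, and by 0.0071 without those mice. Values near 0 were found for Idh2, the mitochondrial NADP-dependent isocitrate dehydrogenase (-0.031), for Ogdh and Dlst of the oxoglutarate dehydrogenase complex (-0.030 and -0.022), for fumarase Fh1 (0.024) and for the mitochondrial malate dehydrogenase Mdh2 (-0.017). The SE exceeded each of these 5 differences. Of the enzymes beside the cycle, cytosolic aconitase Aco1, which doubles as an iron-responsive RNA-binding protein, differed by -0.10 (SE 0.06, but -0.028 without vehicle 15 and 16), cytosolic Idh1 by 0.09 (SE 0.06), Mdh1 of the malate-aspartate shuttle by 0.035, the NADPH-forming malic enzyme Me1 by 0.11 (SE 0.08, but 0.0081 without vehicle 15 and 16) and pyruvate carboxylase Pcx, which refills oxaloacetate and is known from astrocytes, by -0.032.

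Ratios between isoenzymes cancel what is common to an array, and they are given here as descriptions, centred on the mean over the 8 mice. Ldha minus Ldhb was 0.18, 0.088, 0.26 and 0.040 in the FTY720 mice and 0.044, 0.010, -0.43 and -0.19 in the vehicle mice. The groups touched, since FTY720 mouse 6 lay below vehicle 13, and the difference of 0.28 became 0.11 without vehicle 15 and 16. Pfkl minus Pfkm differed by 0.30 without overlap, and by 0.12 without those mice. Sucla2 minus Suclg2 was 0.018, 0.24, 0.071 and 0.11 under FTY720 and -0.21, -0.0054, -0.023 and -0.19 under vehicle. It differed by 0.22 without overlap and by 0.22 again without vehicle 15 and 16. Sucla2 alone differed by -0.0075 and Suclg2 by -0.22, so this ratio restates Suclg2 and is no separate result. Likewise Pfkl minus Pfkm restates Pfkl, since Pfkm alone differed by 0.01. For the other pairs the groups overlapped, with differences of 0.12 (Idh1 minus Idh2), 0.054 (Hk1 minus Hk2), 0.052 (Mdh1 minus Mdh2), 0.020 (Pdk1 minus Pdk2) and 0.012 (Pfkm minus Pfkp).

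**Figure D3:**
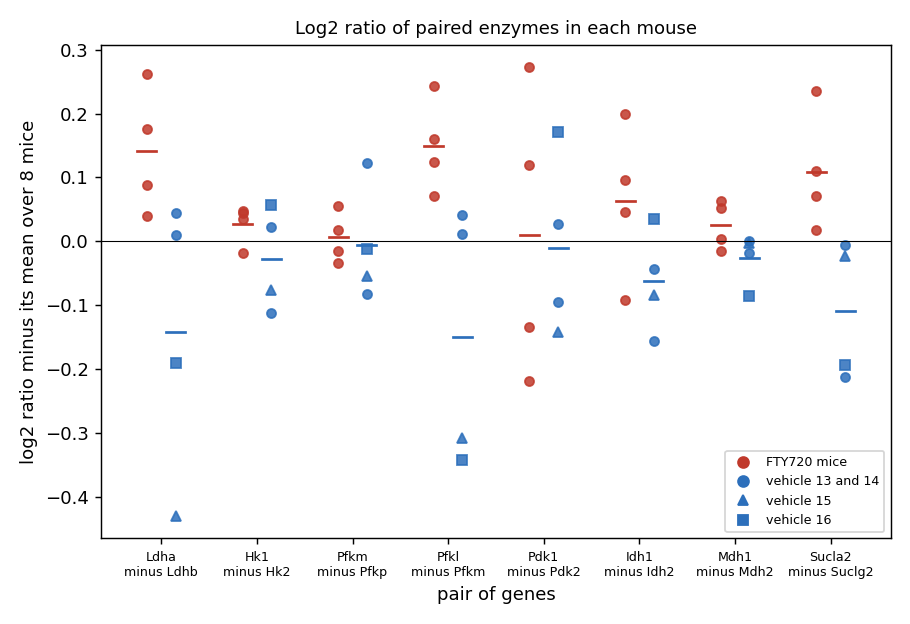
Centred log2 ratio of 8 isoenzyme pairs in each mouse (FTY720 in red, vehicle in blue, vehicle 15 a triangle and vehicle 16 a square). The triangle of Ldha minus Ldhb lies at -0.43, while for Sucla2 minus Suclg2 the red and blue points separate without vehicle 15 or 16 standing apart.

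The members had 76 probe sets in all, and 23 members had more than 1. The sign was shared by all probe sets for 16 of these and mixed for 7. Of the 76, 11 had an unadjusted limma p under 0.05 (9 higher, 2 lower), against 6.76% of the 20393 probe sets fitted (4.08% higher, 2.67% lower). Groups without overlap were seen for 10 of them (9 higher, 1 lower), against 4.41% (2.76% higher, 1.65% lower). The lowest adjusted p over all probe sets was 0.433. Beside the Gapdh 5' probe set, the largest differences were those of dim second probe sets, 0.40 (SE 0.10) for Pfkp at a mean of 6.05, without overlap, and 0.38 (SE 0.16) for Hk1 at a mean of 6.16. Without vehicle 15 and 16 these were 0.32 and 0.073. The bright probe sets of these genes gave -0.0022 and 0.14. A second probe set of Idh3a gave 0.14 and the dimmest of Cs 0.17, both without overlap. A second one of Mdh1 gave -0.23 (SE 0.12), with vehicle 15 the high mouse at 12.73, and -0.047 without vehicle 15 and 16. The 5 probe sets of Pcx lay between -0.04 and 0.05.

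**Figure D4:**
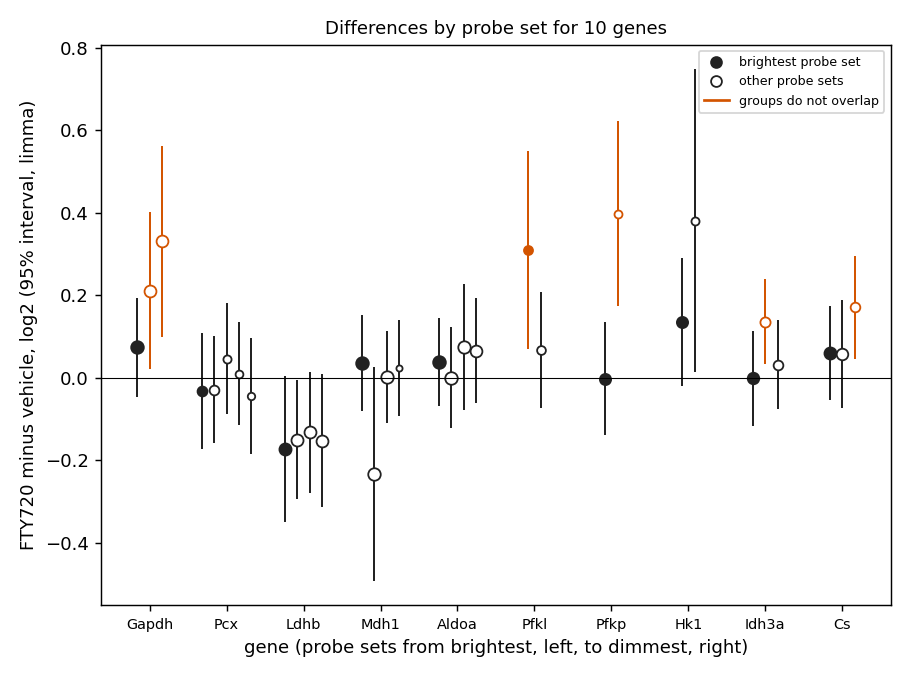
Difference between FTY720 and vehicle (log2) for each probe set of Gapdh, Pcx, Ldhb, Mdh1, Aldoa, Pfkl, Pfkp, Hk1, Idh3a and Cs. Marker size grows with the level, filled markers are the brightest probe set and orange marks groups that do not overlap. The probe sets of Ldhb lie together between -0.17 and -0.13, while those of Pfkp are at -0.0022 and 0.40.

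Of 104 further genes around these pathways 79 were measured, and 4 had an unadjusted limma p under 0.05, 2 higher and 2 lower, which is 5.06% of them against 6.64% of all genes. Groups did not overlap for 6 of them, 5 higher and 1 lower (7.59%, against 4.49% of all genes), and the median difference of the 79 was 0.011. None passed the adjusted p. Among other glycolytic enzymes Pgam2, the muscle phosphoglycerate mutase, differed by 0.29 (SE 0.10; limma adjusted p = 0.719), or 0.21 without vehicle 15 and 16, and Bpgm, which makes 2,3-bisphosphoglycerate, by -0.11 (SE 0.05; limma adjusted p = 0.742), each without overlap. The neuronal glucose transporter Slc2a3 differed by 0.12 and the lactate exporter Slc16a3 by 0.14 (0.055 without vehicle 15 and 16). Slc16a3 had a mean level of 4.35, below the median of all genes, an SE of 0.10 and overlapping groups. The endothelial and glial glucose transporter Slc2a1 differed by -0.043 and the astrocytic aldolase Aldoc by 0.034.

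All 6 measured genes of the mitochondrial shuttles, which carry reducing equivalents and metabolites across the inner membrane, had differences above 0, as did 53.5% of all genes, and without vehicle 15 and 16 the differences of 5 were above 0. Gpd1, the cytosolic glycerol phosphate dehydrogenase, was at 0.19 without overlap and at 0.12 without those mice. The glutamate carrier Slc25a22 was at 0.14 and 0.016, and the mitochondrial glycerol phosphate dehydrogenase Gpd2, named after its values were seen, at 0.20 and -0.017. The mean of the shuttle genes deviated by 0.035 to 0.064 in the FTY720 mice and by -0.14 to 0.022 in the vehicle mice. Of the genes beside the cycle 9 of 10 were above 0, and Sdhb and Sdhc, subunits of succinate dehydrogenase, were at 0.07 and 0.10, both without overlap, and at 0.042 and 0.094 without vehicle 15 and 16. Pck2, the mitochondrial phosphoenolpyruvate carboxykinase, was at 0.21, and at 0.038 without those mice. Of pyruvate entry, Acss1, a mitochondrial acetyl-CoA synthetase, was at 0.10 and the pyruvate carrier Mpc1 at -0.11, or 0.048 and -0.026 without those mice. Of glycogen and pentose phosphate metabolism, the glycogen phosphorylase Pygm was at 0.12 (0.067 without them) and Pgm2, named as a phosphoglucomutase, at 0.16 (0.17). The mean levels of Pygm and Pgm2, 5.82 and 6.42, were below the median of all genes.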

How the data were processed

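Hippocampal RNA was hybridised to 8 Affymetrix 3' arrays. The labels give each array as a numbered biological replicate, read here as 1 mouse per array. The authors deposited 1 value for each probe set, taken as log2 from its range. The submitters' processing notes list MAS5, RMA and Affymetrix Expression Console with no version or role. Genome build, slide and scan date are not given in the sources used here, and batches were not tested. Such values understate differences of dim and of nearly saturated probe sets.

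Of 22690 probe sets 20393 were annotated to 1 gene, 691 to several and 1606 to none. Control probe sets annotated to 1 gene were kept, since Gapdh has no other. Each gene took its probe set of highest mean, with no filter and no further normalization. FTY720 was compared with vehicle by limma 3.58.1 in R 4.3.3 (lmFit, eBayes, no covariate), adjusted by Benjamini-Hochberg over 12394 genes. SE and 95% intervals are those of that fit. The same fit was also run on simulated data, with noise drawn independently for each gene and mouse. Such data lack tissue differences that many genes of a mouse share, so that run cannot show how the fit performs on these arrays. The 5' minus 3' signals were tested by exact permutation. Promoters came from RefSeq (GRCm38.p6).

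Every measured member is named. All 8 values are printed for the 8 members of smallest unadjusted p, the 2 of largest SD and Gapdh, and 2 genes per pathway list are named by smallest p. Sdhb, Slc2a1, Aldoc, Hif1a, Vegfa, Ppargc1a and the reference genes were named after their values were seen. Members and lists were chosen with earlier results of these data known. Alternatives covered normalization, probe set choice, a filter on dim genes, variance models, covariates and leaving out mice.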

Additional observations from a re-analysis of the deposited data

Results flagged for a closer look

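In 126 groups of 4 mice, formed by the members, the named pathway genes, the ratios and the 5' minus 3' signals, 8 had a mouse far from the other 3 by Dixon's criterion, where 1 in 20 would be 6.3. Ldha was lowest in vehicle 15 at 10.35, with the next mouse at 10.48, and Gpd1 in vehicle 15 at 7.75, with the next at 8.09. Mdh2 was highest in vehicle 15 at 12.95, with the next at 12.90. Pdk2 was lowest in vehicle 16 at 6.46 (next 6.61) and Suclg1 in vehicle 16 at 10.77 (next 10.83). Pcx was highest in vehicle 14 at 8.77 (next 8.67). Under FTY720, Ogdh was lowest in mouse 6 at 8.46 (next 8.57) and the glucose transporter Slc2a3 in mouse 4 at 11.18 (next 11.34). Vehicle 15 and 16 gave 3 and 2 of the 8.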

How the results depend on the processing

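No member passed an adjusted p of 0.05 under any of the 18 alternatives. The count at an unadjusted p under 0.05, 5 as reported, was 8 with trended and robust variance, 3 with array weights, 1 with the actin 5' minus 3' signal as a covariate, 2 with the oligodendrocyte markers as a covariate, 1 without vehicle 15 and 16 and 2 to 7 when 1 mouse was left out. Members without overlap, 5 as reported, were 9 with the mean of all probe sets, 8 without vehicle 15 and 16 and 5 to 10 when 1 mouse was left out. For neither count is the share of all genes under the alternatives given here. Groups of fewer mice fail to overlap more easily, so the counts from fewer mice cannot be set against the 5 as reported. The median difference, 0.037, was 0.014 without vehicle 15 and 16. No paired analysis was possible because the groups share no replicate numbers.

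The sign held under all alternatives for 18 members, among them every member printed in full except Dld, and turned for 20, of which Me1 had the largest reported difference, 0.11. Without vehicle 15 and 16 it turned for Hk2 (-0.019), Pfkm (-0.011), Pfkp (0.00302), Pkm (-0.053), Idh3a (0.00224) and Sucla2 (0.020). With array weights it turned for Pfkm (-0.0012), Pkm (-0.00822), Idh3a (0.0020) and Sucla2 (0.015), and with quantile normalization for Pfkp (0.00392), Eno2 (0.00463), Idh3a (0.010), Sucla2 (0.0014) and Mdh2 (0.00998). With the mean of all probe sets it turned for Pfkp (0.20), Dlat (-0.0012), Idh3a (0.056), Dlst (0.015), Mdh2 (0.00758) and Mdh1 (-0.043). With the actin covariate it turned for Pfkp (0.061), Dlat (-0.026), Dld (-0.11), Pdk2 (-0.0121), Suclg1 (-0.011), Fh1 (-0.0022), Mdh1 (-0.022) and Me1 (-0.028). With the oligodendrocyte covariate it turned for Pfkp (0.015), Pgk1 (-0.000325), Pgam1 (-0.0052), Dlat (-0.076), Dld (-0.060), Pdk2 (-0.12), Idh2 (0.070), Sucla2 (0.011), Mdh1 (-0.039), Pcx (0.083) and Me1 (-0.00783). When 1 mouse was left out, values ran from -0.037 to 0.043 for Pfkm, -0.033 to 0.032 for Pfkp, -0.020 to 0.032 for Pgk1, -0.00379 to 0.017 for Pgam1, -0.034 to 0.033 for Eno2, -0.038 to 0.065 for Pkm, -0.000908 to 0.15 for Dld, -0.069 to 0.017 for Idh2, -0.021 to 0.028 for Idh3a, -0.051 to 0.0010 for Dlst, -0.024 to 0.023 for Sucla2 and -0.058 to 0.016 for Pcx. The cause of a turned sign was not tested. Idh1 and Aldoa gave no value without probe sets prone to cross-hybridisation, Gapdh none without control probe sets (an alternative added after the data were seen, as was the fit by probe set), and Hk2, Pdk1, Pdk2 and Suclg2 none above the median level.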

Other observations

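Among genes that sense oxygen and energy, 22 of 26 were measured, 11 with differences above 0 and 11 below. Prkag2, a regulatory subunit of the AMP-activated kinase, differed by 0.20 (SE 0.07; limma adjusted p = 0.719) without overlap of the groups, and 0.092 without vehicle 15 and 16. Esrrg, an orphan nuclear receptor of mitochondrial metabolism, differed by -0.15 (SE 0.07; limma adjusted p = 0.748), and by -0.071 without those mice. The mean level of Esrrg, 5.26, was below the median of all genes. The hypoxia-inducible factor Hif1a differed by 0.019, its target Vegfa by 0.10 and the coactivator Ppargc1a by 0.065, each with overlap.

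Several metabolic genes were among the steadiest on the arrays. The SD between mice of a group was smaller than that of Mdh2 for 0.290% of all genes and smaller than that of Pgam1 for 0.307%. These shares are over genes of every level, while Mdh2 and Pgam1 were brighter than 99.6% and 96.1% of all genes. The part of a bright signal in their small spread was not tested. Of a list of 12 reference genes 9 were measured. The share of genes with a smaller SD was 0.436% for Sdha, 0.807% for Rpl13a, 8.73% for Hprt, 50.0% for Actb and 54.8% for B2m. It was 9.51% for Pgk1 and 13.1% for Gapdh, members of the metabolic list that also serve as references. The shares of Tbp, Ywhaz, Gusb and Tfrc are not given here. B2m differed by -0.19 (SE 0.07; limma adjusted p = 0.719) and Actb by 0.12 (SE 0.07), or -0.12 and 0.034 without vehicle 15 and 16. These were the extremes of the 9 reference genes, whose median size regardless of sign was 0.039. Mdh2 and Pgam1 differed by -0.017 and 0.0080. Pfkl had a larger spread than 88.4% of all genes.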
